A study of Mus musculus with 2 samples.

Results

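MHC class I presentation shows peptides made inside a cell on its surface. The proteasome cuts cytosolic proteins, the transporter TAP carries the peptides into the endoplasmic reticulum, and tapasin helps to load them onto a class I heavy chain bound to β2-microglobulin. Interferon-γ is known to switch the proteasome to its immunoproteasome form, in which 3 inducible catalytic subunits take the places of the constitutive ones, and the transactivator NLRC5 drives class I genes, most strongly in lymphocytes. The 10 genes described here were chosen by name for these roles, and all 10 are listed among the 24346 symbols of both libraries. They are the heavy chains H2-K1 and H2-D1, the light chain B2m, Tap1, Tap2 and Tapbp of peptide transport and loading, the immunoproteasome subunits Psmb8, Psmb9 and Psmb10, and Nlrc5.

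The data are bulk RNA-seq of GFP+CD4+ cells sorted from the spleen and the lung of Foxp3-DTR-GFP (FDG) mice, 10 to 16 weeks old, on day 15 after 50 μg of intratracheal bleomycin (BLM), a drug that injures the lung and leads to fibrosis. In these mice the Foxp3 locus drives GFP, together with the diphtheria toxin receptor, so that the sort takes regulatory T cells (Tregs), and both tissues come from mice that carry this allele and received BLM. Each library holds cells of 3 mice, combined before sequencing. With 1 library for each tissue, no difference below has a replicate check, no p-value is given, and a gene was counted as over 2-fold higher or lower as a description of these libraries.

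The deposited values are FPKM, by definition fragment counts divided by exon length and by how many fragments the library had mapped. Whether that divisor was also scaled between the libraries is not stated. From the steps of the lowest values, 1 read on 1 kb of effective transcript was worth 0.0964 FPKM in spleen against 0.0849 FPKM in lung, which puts the reads on genes at about 9.86e+06 and 1.29e+07. The members rested on 1578 to 78372 estimated reads in spleen and on 1226 to 99706 in lung, so that counting alone leaves little uncertainty in their values. PCR copies are counted separately and the intervals given below cover counting error only.

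Cells of other types left RNA in both sorts. Foxp3 was at 18.7 FPKM in spleen against 41.8 FPKM in lung, and Cd4 at 195 and 179 FPKM. Of 6 Treg markers, 4 were higher in lung and 2 lower. They ranged from Il2ra, at 89.4 and 59.1 FPKM, to Ctla4, at 221 and 601 FPKM. Of 10 T cell markers, 3 were higher and 7 lower, none of them over 2-fold. All 12 macrophage markers were higher in lung, with a summed level of 781 FPKM in spleen against 27547 FPKM in lung, most of it Lyz2. All 7 B cell markers at 1 FPKM or more were lower in lung, with sums of 262 and 138 FPKM over the 8 listed. Over 7 markers each, the sums were 12.8 and 3127 FPKM for lung epithelium, 0.290 and 163 FPKM for fibroblasts and 13.3 and 55.2 FPKM for dendritic cells. At 0 in spleen were Sftpc and Sftpb of epithelium and Col3a1, Lum, Mgp and Pdgfra of fibroblasts. Clec9a of dendritic cells was at 0 in lung. Of the 6 dendritic cell markers at 1 FPKM or more, 4 were higher in lung and 2 lower. The lower ones were Flt3 at 1.43 and 0.172 FPKM and Siglech at 2.78 and 1.71 FPKM. The largest part of the dendritic cell sum in lung was Itgax, at 1.36 and 24.1 FPKM. Most of the epithelial sum in lung was Scgb1a1, at 1.48 and 3021 FPKM. Of the 7 epithelial markers, 5 were higher in lung and 2 lower, Epcam at 8.75 and 1.79 FPKM and Ager at 2.27 and 1.74 FPKM. CD8 and NK cell markers summed to 52.4 and 122 FPKM, most of it in lung Cd8b1, at 19.9 and 74.8 FPKM. Of these 7 markers, 5 were higher in lung and 2 lower, Ncr1 at 2.69 and 0 FPKM and Eomes at 1.68 and 0.0246 FPKM. Neutrophil markers summed to 462 and 1159 FPKM, most of it S100a8, at 276 and 804 FPKM, and S100a9, at 120 and 328 FPKM. Of these 7 markers, 3 were higher in lung and 4 lower, with Mpo, Elane, Camp and Ngp at 0 there. Endothelial markers summed to 55.4 and 40.8 FPKM, with Cdh5 and Tek at 0 in spleen and Kdr at 0 in lung. Most of the endothelial sum was Pecam1, at 54.8 and 31.7 FPKM, whereas Cldn5 was at 0.160 and 6.54 FPKM and Vwf at 0.425 and 2.03 FPKM. Nearly all nucleated cells make class I molecules, and the part of other cells in the values below was not tested. A lower share of a cell type and less RNA per cell cannot be told apart in bulk samples.

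Of the 10 genes, 7 lie on chromosome 17 of GRCm38 within 1.35 Mb of the mouse MHC, from 33915899 to 35267499, and Psmb9, Tap1, Psmb8 and Tap2 stand side by side there. B2m lies on chromosome 2 from 122147686 to 122153083, and Psmb10 and Nlrc5 lie on chromosome 8, Nlrc5 from 94434356 to 94527272. The RefSeq start sites of Psmb9 and Tap1 face away from each other and are 226 bases apart. RefSeq promoter windows (GRCm38.p6, 250 bases before the start) were at hand for 8 of the 10 genes. The stretches before the starts of H2-K1 and B2m are printed because these genes were among the highest of both libraries, with capitals for matches to the NF-kappaB site and, in B2m, also to the interferon regulatory factor (IRF) element, GAAA repeated after any 2 bases, which stands first.
H2-K1, chr17:34000349-34000547, minus strand: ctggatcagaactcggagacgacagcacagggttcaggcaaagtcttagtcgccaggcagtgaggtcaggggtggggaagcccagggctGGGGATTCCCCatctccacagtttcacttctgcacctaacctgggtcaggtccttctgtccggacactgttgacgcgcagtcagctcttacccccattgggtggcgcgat
B2m, chr2:122147487-122147685, plus strand: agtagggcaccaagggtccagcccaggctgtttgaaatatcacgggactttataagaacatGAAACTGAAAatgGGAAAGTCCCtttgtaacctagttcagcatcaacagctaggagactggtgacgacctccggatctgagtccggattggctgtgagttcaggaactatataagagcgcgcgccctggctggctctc

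The heavy chain promoters are close relatives. Over their best local alignment, 161 of 177 columns were identical between H2-K1 and H2-D1 (91.0%), and the 30 bases around the NF-kappaB site are printed to show how near the genes are to each other.
H2-K1, chr17:34000438-34000467, minus strand: cccagggctGGGGATTCCCCatctccacag
H2-D1, chr17:35262914-35262943, plus strand: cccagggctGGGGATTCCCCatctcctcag
On either strand, a match to the NF-kappaB site was found in 3 of the 8 windows (H2-K1, H2-D1 and B2m) and in 3.75% of 27025 promoters. The IRF element was found in 1 of 8 (B2m) and in 3.04% of all promoters, the GAS element TTCNNNGAA in 1 of 8 (Psmb8) and in 7.18%, the CCAAT box in 6 of 8 and in 34.5%, and the GC box GGGCGG in 3 of 8 and in 32.9%. The windows of Psmb9 and Tap1 overlap and share their matches to the CCAAT box and the GC box. In H2-K1 and H2-D1 the NF-kappaB site matches in 2 overlapping registers. Only exact matches to each pattern were counted. Looser forms were not searched, so a window without a match, such as that of H2-K1 for the IRF element, can still hold an element of that kind.

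In levels, class I messages were among the highest of all genes in both libraries. B2m was at 4824 FPKM in spleen against 6623 FPKM in lung, which ranks it 4 and 7 among all symbols. H2-D1 was at 3992 and 4473 FPKM, rank 6 and 15. H2-K1 was at 3142 and 3072 FPKM, rank 10 and 28. These 3 genes that form the class I molecule stood more than 4-fold above the next member, since H2-K1 was 4.22-fold over Psmb8 in spleen and 4.21-fold in lung. Together the 10 genes held 2.30% of the FPKM sum in spleen and 1.98% in lung.

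**Figure D1:**
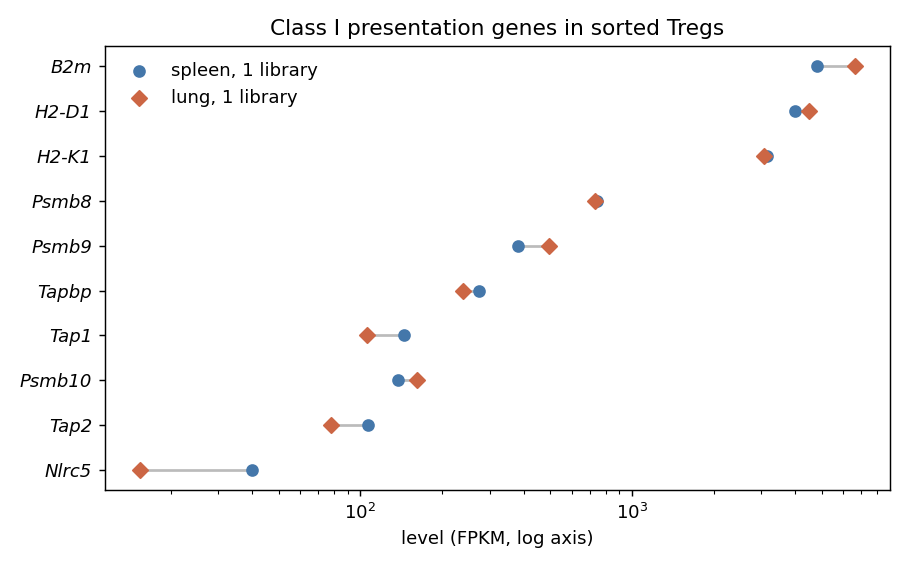
Level of each of the 10 genes (FPKM, log axis) in the splenic library (circles) and the lung library (diamonds), 1 library for each tissue. The order from B2m down to Nlrc5 differs between the libraries only in Tap1 and Psmb10, and Nlrc5, at 39.7 and 15.5 FPKM, has the widest gap.

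The other members followed in nearly the same order in both libraries. Psmb8, the inducible β5 subunit, was at 744 FPKM in spleen against 729 FPKM in lung. Psmb9, the inducible β1 subunit, was at 379 and 496 FPKM. Tapbp, which encodes tapasin, was at 274 and 240 FPKM. Below them, Tap1 and Psmb10 changed places, since Tap1 was at 145 FPKM in spleen against 106 in lung, whereas Psmb10, the inducible β2 subunit, was at 138 and 161 FPKM. Without replicates it is not known which neighbours in this order differ beyond the spread between samples, and the closest were Tap1 and Psmb10 in spleen, 1.05-fold apart. Tap2 was at 106 and 77.7 FPKM and Nlrc5 was the lowest, at 39.7 and 15.5 FPKM.

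Between the tissues, the levels of 9 of the 10 genes were within 2-fold. No member was over 2-fold higher in lung and 1, Nlrc5, was over 2-fold lower. Among the 12094 genes that reached 1 FPKM in either library, 17.8% were over 2-fold higher in lung, 15.5% were over 2-fold lower and 66.8% were within 2-fold. Weakly expressed genes scatter more, and among the 1028 genes with a geometric mean of 100 FPKM or more, 87.9% were within 2-fold, 10.9% over 2-fold higher and 1.17% over 2-fold lower, and 75.5% were higher at all and 24.5% lower. The share of members within 2-fold is thus near that of these highly expressed genes, although Tap2 and Nlrc5 lie below that band. The median log2 ratio of lung to spleen was -0.030 over the members, 0.031 over all 12094 genes and 0.34 over the highly expressed genes. Of the 10 genes, 4 were higher in lung (H2-D1, B2m, Psmb9 and Psmb10) and 6 were lower, against 51.5% and 48.5% of all genes. None was near a 20-fold difference, which 3.27% of the 12094 genes exceeded upward and 2.35% downward.

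**Figure D2:**
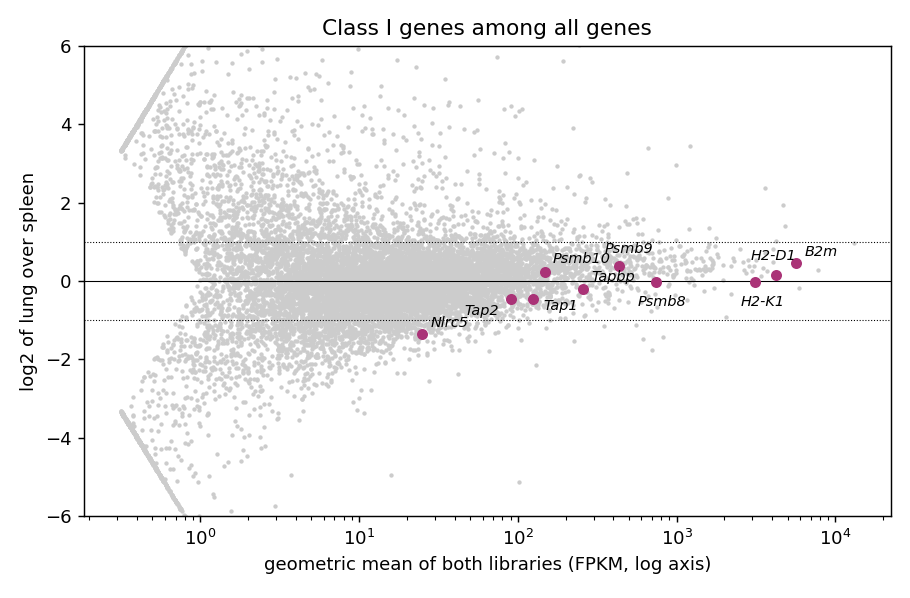
Log2 of lung over spleen against the geometric mean of both libraries (FPKM, log axis) for genes that reached 1 FPKM in either library (grey) and the 10 class I genes (purple), with FPKM under 0.1 set to 0.1. Dotted lines mark 2-fold, and genes past 6 on the log2 axis are not drawn. Nlrc5, at -1.36, is the only class I gene outside the dotted lines.

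Nlrc5 was 2.57-fold lower in lung than in spleen, a log2 ratio of -1.36 with a counting interval of -1.46 to -1.26 (95%). It rested on about 2773 reads in spleen and 1226 in lung, over a transcript of 6945 nt. Only 10.8% of the 12094 genes had a lower ratio. Among the 5297 genes with a geometric mean of 10 to 100 FPKM, where Nlrc5 lies, 6.63% were over 2-fold lower. Nlrc5 encodes an NLR protein that acts in the nucleus on the promoters of class I heavy chain genes and of B2m, Tap1 and Psmb9.

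The components of the class I molecule differed little between the libraries. B2m was 1.37-fold higher in lung, with a log2 ratio of 0.46 (0.44 to 0.48 from counting, and 0.025 with TPM), the highest ratio of the 10 genes. H2-D1 had a log2 ratio of 0.16 (-0.27 with TPM) and H2-K1 of -0.032 (0.14 with equal T cell markers). Ratios within a library do not depend on how the libraries were scaled to each other. H2-K1 stood at 0.651 of B2m in spleen and at 0.464 in lung, and H2-D1 at 0.827 and 0.675, so that both heavy chains were lower relative to the light chain in lung. The ratio of H2-K1 to H2-D1 was 0.787 in spleen and 0.687 in lung. Near-identical genes could take part of these reads. Of all 75-base windows of the H2-K1 transcript, 1.55% occur unchanged in another gene's transcript, against 7.10% for H2-D1 and 0 for B2m. Reads that map with mismatches are not covered by these shares.

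All 3 genes of peptide transport and loading were lower in lung, as were 48.5% of all 12094 genes. Tap1 was 1.37-fold lower and so was Tap2, with log2 ratios of -0.45 for both. The products of these genes are the partner chains of the transporter, and the ratio of Tap1 to Tap2 was 1.36 in either library. Tapbp had a log2 ratio of -0.19 (-0.023 with equal T cell markers). Windows shared with other annotated transcripts made up 8.97% of Tap2 and 17.5% of Tapbp, and 0 of Tap1. Tap1 and Psmb9, whose start sites lie beside each other, had ratios of opposite sign as deposited, 0.39 for Psmb9 against -0.45 for Tap1, and the same sign with TPM (-0.045 and -0.89), on about 6680 and 3204 reads in lung.

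The immunoproteasome subunits were near or above the splenic level as deposited. The log2 ratio was -0.028 for Psmb8 (-0.065 to 0.0092 from counting), 0.39 for Psmb9 and 0.23 for Psmb10, and all 3 were below 0 after rescaling to TPM. The constitutive subunits that they replace were higher in lung as deposited, except that Psmb6 was lower after rescaling to TPM. Psmb5 was at 166 FPKM in spleen against 251 in lung, Psmb6 at 197 and 253, and Psmb7 at 64.8 and 127.

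Set against its constitutive counterpart, each inducible subunit was the more abundant message in both tissues, by a margin that was smaller in lung for 2 of the 3 pairs. Psmb8 stood at 4.49 times Psmb5 in spleen and at 2.90 times in lung. Psmb10 stood at 2.13 times Psmb7 in spleen and at 1.27 times in lung. Psmb9 stood at 1.92 times Psmb6 in spleen and at 1.96 times in lung. The median change of the 3 ratios was -0.63 on the log2 scale. These ratios carry a limit, since 40.0% of the 75-base windows of Psmb5 and 24.1% of those of Psmb7 also occur in transcripts of another gene, mainly Gm3375 for Psmb5 and only Nek6 for Psmb7. Mir686, which shares a few of the windows of Psmb5, was at 221 FPKM in spleen and listed at 0 in lung. Nek6 was at 1.66 FPKM in spleen against 15.3 FPKM in lung. Psmb6 and Psmb9, the pair with nearly equal ratios in both tissues, shared no window with any other gene.

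**Figure D3:**
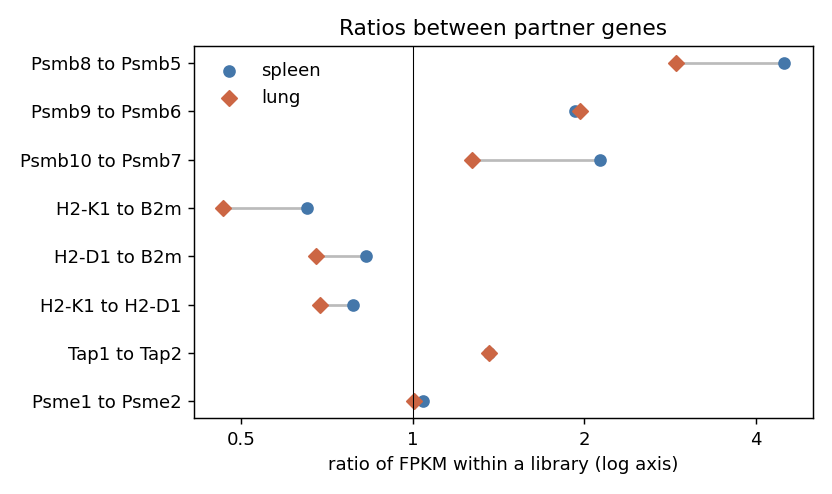
Ratio of FPKM between partner genes within the splenic (circles) and the lung library (diamonds), on a log axis on which 1 is equal FPKM. Psmb8 to Psmb5 goes from 4.49 to 2.90 and Psmb10 to Psmb7 from 2.13 to 1.27, whereas Psmb9 to Psmb6 (1.92 and 1.96) and Tap1 to Tap2 (1.36 in both) hardly differ.

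The other subunits of the core and the cap were mostly higher in lung as deposited and mostly lower after rescaling to TPM. Of the other 11 subunits of the 20S core, 10 were higher and none was over 2-fold, with a median log2 ratio of 0.38, from Psma6 at -0.042 to Psmb1 at 0.58. Of all genes with a geometric mean of 100 FPKM or more, 75.5% were higher, with a median of 0.34. Among all 12094 genes, 51.5% were higher. With TPM, 4 of the 11 were higher. Of 20 subunits of the 19S cap, which unfolds substrates, 14 were higher, with a median of 0.26, from Psmd5 at -0.35 to Psmd9 at 0.73, and 6 were higher after rescaling to TPM. Psmb9, at 0.39, was near the median of the core, and Psmb8, at -0.028, was below all but Psma6. Of 6 genes of proteasome assembly and its control, 3 were higher and 3 lower, with a median of 0.032 (-0.40 with TPM), from Nfe2l1 at -0.55 to Pomp, the assembly factor of new proteasomes, at 0.93 (224 and 428 FPKM). The PA28 activator, an interferon-inducible ring that opens the core, was nearly level, with Psme1 at 548 and 586 FPKM and Psme2 at 526 and 583 FPKM. Their ratio was 1.04 in spleen and nearly the same in lung (51.7% of the windows of Psme2 occur in Psme2b as well). Psme3 was at 82.9 and 69.4 FPKM and Psme4, of the PA200 activator, at 4.81 and 2.41 FPKM.

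In the endoplasmic reticulum, the partners of tapasin were within 2-fold of the splenic level. Calr (calreticulin) was at 216 FPKM in spleen against 250 in lung, Canx (calnexin) at 72.4 and 78.9, and Pdia3, the oxidoreductase of the loading complex, at 288 and 359. Tapbpl, the tapasin-related peptide editor, was at 72.5 and 50.7 FPKM, and Erap1, which trims peptides, at 39.1 and 33.1 FPKM. Of 12 genes of chaperones and peptide trimming, not all in this compartment, 6 were higher and 6 lower (51.5% and 48.5% of all genes). Their median log2 ratio was 0.043, and with TPM 1 was higher. Thop1, a cytosolic peptidase, was the highest at 1.19 (3.69 and 8.40 FPKM), and the aminopeptidase gene Npepps the lowest at -1.42 (12.6 and 4.71 FPKM).

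Of the other class I heavy chains, 18 of 26 reached 1 FPKM, of which 13 were lower in lung, 1 over 2-fold, and 3 over 2-fold higher, with a median log2 ratio of -0.30. Of all 12094 genes, 48.5% were lower, 15.5% over 2-fold lower and 17.8% over 2-fold higher. Under the other scalings, 11 to 15 of the 18 were lower, the 15 with TPM, which lowers most genes. H2-Q9, of the Qa-2 family, was at 530 FPKM in spleen against 487 in lung. H2-T23, which encodes Qa-1, a ligand of the NKG2A receptor, was at 440 and 551 FPKM, H2-Q7, of the Qa-2 family as well, at 397 and 316 FPKM, and H2-M3, which presents formylated peptides, at 83.2 and 72.4 FPKM. H2-M2 had the highest ratio, from 1.97 to 19.9 FPKM (about 24.9 and 285 reads), and H2-Q2 the lowest, from 3.46 to 0.572 FPKM. The levels of the Q genes and of H2-T23 are uncertain. Of the windows of H2-Q7, 21.7% recur in other genes, as do 24.9% of those of H2-Q6 and 13.1% of those of H2-T23. The windows of the rest of this list, H2-Q9 and H2-M3 included, were not compared.

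**Figure D4:**
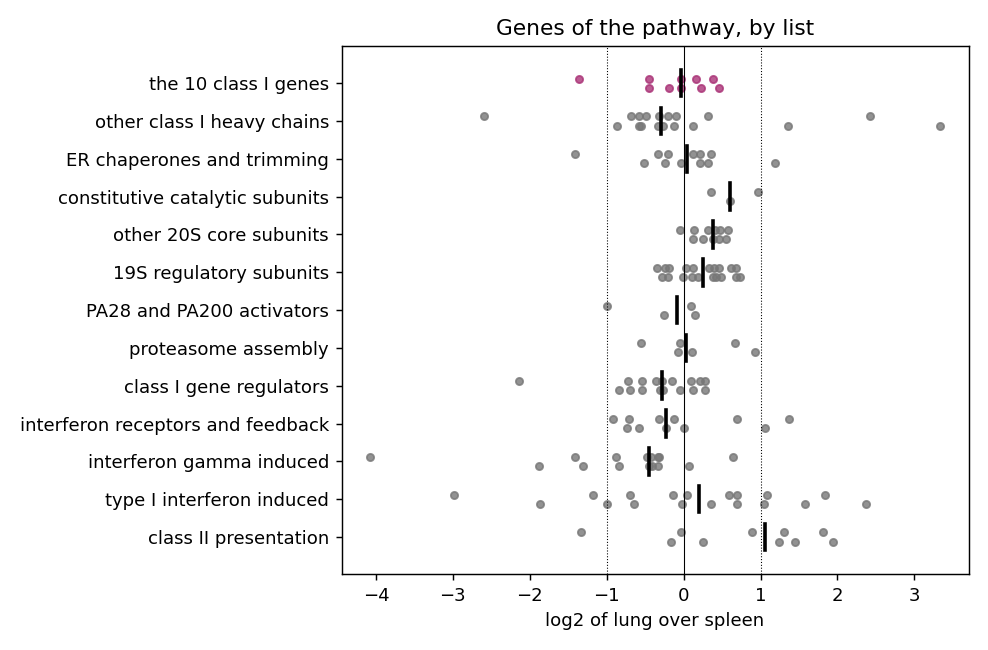
Log2 of lung over spleen for the 10 class I genes (purple) and for lists of related genes that reached 1 FPKM in either library (grey), with the median of each list as a bar and dotted lines at 2-fold. The 10 genes centre on -0.030, the other core subunits on 0.38 and genes induced by interferon-γ on -0.45.

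Genes known to act upstream of class I were mostly lower in lung. Irf1, a direct activator of class I and immunoproteasome genes, was at 264 FPKM in spleen against 181 in lung. Rfx5, part of the complex through which NLRC5 binds DNA, was at 9.18 and 10.6 FPKM. Of 17 such regulators, 12 were lower, with a median log2 ratio of -0.29, against 48.5% of all 12094 genes. Under the other scalings 10 to 17 were lower, the 17 with TPM, which lowers most genes. The highest was Nfya, of the CCAAT-binding factor, at 0.28, and the lowest Ciita, at -2.14. Of 11 genes of the interferon receptors, their kinases and feedback, 4 were higher (3 to 5 under the other scalings) and 7 lower, with Ifnar1, a chain of the type I receptor, the lowest at -0.92. Ifngr1, the ligand-binding chain of the interferon-γ receptor and the highest of these, was 2.59-fold higher in lung, at 269 and 696 FPKM, and Ifng itself was at 12.4 and 10.5 FPKM. Jak1 was at 244 and 163 FPKM, Jak2 at 37.1 and 22.3 FPKM, and Socs3, a feedback inhibitor of cytokine receptors, at 39.2 and 81.7 FPKM.

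Most genes that interferon-γ induces, chiefly GTPases of cell defence, were lower in lung. Of 15 such genes that reached 1 FPKM, 13 were lower in lung, 4 of them over 2-fold, and none was over 2-fold higher. Their median was -0.45. Of all 12094 genes, 48.5% were lower and 15.5% over 2-fold lower. Between 13 and 14 of the 15 were lower under each of the other scalings. With TPM, the median over genes at 1 FPKM or more in both libraries was itself at -0.42. Igtp was at 214 FPKM in spleen against 154 in lung, Irgm1 at 119 and 47.9 FPKM, and Gbp9 at 51.5 and 14.0 FPKM. Gbp5 had the lowest ratio, at 3.57 and 0.211 FPKM, on about 105 and 7.08 reads. Cxcl10, a chemokine gene, was the highest, at 16.9 and 26.4 FPKM. Nlrc5, at -1.36, was below the median of this list, Tap1 and Tap2, at -0.45, were at it, and the other 7 members were above it, from Tapbp at -0.19 to B2m at 0.46.

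Among class II genes, which mouse T cells hardly make, 5 of 10 were over 2-fold higher in lung (3 with TPM) and 1 was over 2-fold lower. The shares over all 12094 genes were 17.8% and 15.5%. Log2 ratios went from H2-Ob at -1.33 to H2-DMb1 at 1.94, and H2-Ab1 was at 486 FPKM in spleen against 1195 in lung. Ciita, the class II counterpart of Nlrc5, was at 3.96 FPKM in spleen against 0.896 FPKM in lung.

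How the libraries are scaled to each other decided the direction of members near equal levels. B2m was higher in lung and Tap1, Tap2, Tapbp and Nlrc5 were lower under all 5 scalings, the deposited one included, although B2m was at only 0.025 with TPM and Tapbp at -0.023 with equal T cell markers. Psmb9 and Psmb10 were higher except after rescaling to TPM, H2-D1 was higher except after rescaling to TPM or to the same upper quartile, and H2-K1 and Psmb8 were lower except after rescaling to equal T cell markers. Rescaling to TPM lowered every log2 ratio above the floor by 0.43, because the FPKM sum was 599633 in spleen and 808853 in lung, and moved the median over genes at 1 FPKM or more in both libraries from 0.016 to -0.42. Nlrc5 stayed over 2-fold lower under each scaling, between -1.79 and -1.19, and no other member passed 2-fold.

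**Figure D5:**
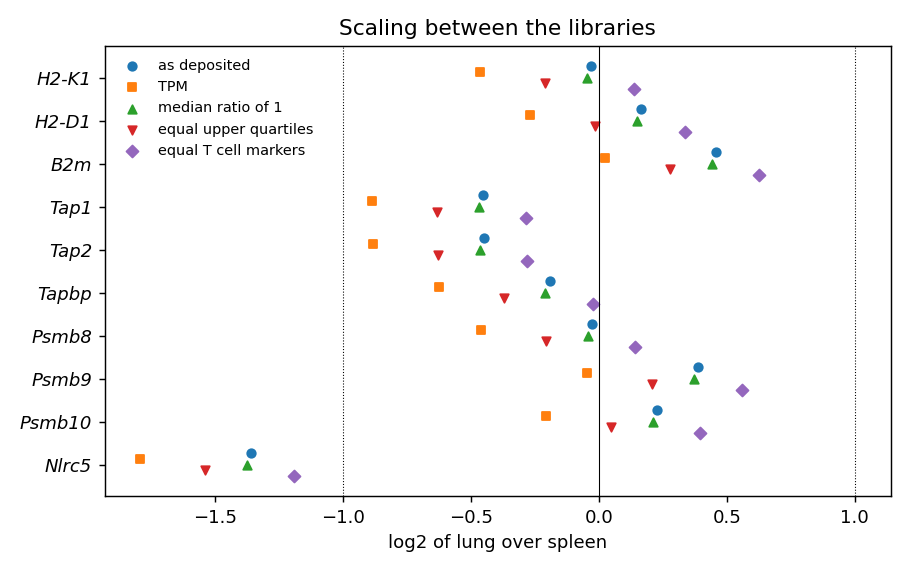
Log2 of lung over spleen for each of the 10 genes under 5 scalings of the lung library, with dotted lines at 2-fold. The points of a gene shift together, from the lowest with TPM to the highest with equal T cell markers, and only Nlrc5 lies past a dotted line.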

How the data were processed

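Bulk RNA-seq of GFP+CD4+ cells gave 1 library from spleen and 1 from lung. The authors mapped 75-base single-end reads of SMART-Seq HT cDNA to mm10 and deposited FPKM. The submitters' processing notes name Cuffdiff 2.2.1, SAMtools 0.1.18, TopHat2 2.1.1 and Bowtie2 2.2.8. The annotation, the Cuffdiff options, the handling of multi-mapped reads and any scaling between libraries are not given in the sources used here.

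FPKM under 0.1 were set to 0.1 and lung was divided by spleen. Alternatives rescaled lung to the FPKM sum of spleen (called TPM), to a median ratio of 1, to its upper quartile or to its T cell markers. The members and lists were chosen with earlier results of these data known, so they give no independent support. Named genes are all members, set partners and regulators, the highest and lowest ratio of each list (those of the marker lists are not all printed, and a regulator is not reported here), and the nearest gene to each member, and H2-Q9, H2-Q6, H2-Ab1, Ifng, Nek6, Jak1, Jak2, Socs3, Igtp, Irgm1 and Gbp9 were named after their values had been seen. Reads were estimated from GENCODE M21 transcript lengths (GRCm38, 23677 symbols), with a fragment length of 200 ± 80 and a shortest fragment of 73. Among genes with 1 transcript length and up to about 10 reads, 72.6% in spleen and 74.6% in lung came within 0.1 of a whole read. Windows of 75 bases were compared with all GENCODE M21 transcripts. The estimate of the value of 1 read and the 2-fold call were tested on simulated counts. The scalings, windows and promoter matches were not tested in this way. Python 3.11.15, numpy 2.4.6, pandas 2.3.3, Biopython 1.88 and matplotlib 3.10.9 were used.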

Additional observations from a re-analysis of the deposited data

How the results depend on the processing

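Over the 10 genes, a floor at 0.01 or 1 FPKM, a pseudocount (0.1 or 1 FPKM in its place) and a filter at 10 FPKM in both libraries left the counts past 2-fold at 0 higher and 1 lower and the median log2 ratio at -0.030. The median became -0.46 with TPM, -0.21 with equal upper quartiles, 0.14 with equal T cell markers and -0.11 without H2-K1 and H2-D1, and the number of members higher in lung became 1 with TPM, 3 with equal upper quartiles and 6 with equal T cell markers. With 4-fold in place of 2-fold, 0 members were lower. Nlrc5 was below 0 under all of these. No paired analysis was possible because each tissue has 1 library. The same holds for leaving out a replicate, so that the spread between mice is unknown. The depth does not limit the members, but H2-Q2, Gbp5 and other genes of a few FPKM rest on few reads.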

Other observations

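Genes induced by type I interferon, which also raises class I expression, were spread in both directions. Of 18, 10 were higher in lung, 5 of them over 2-fold, and 8 were lower, 3 of them over 2-fold. Of all 12094 genes, 51.5% were higher, 17.8% over 2-fold, and 48.5% were lower, 15.5% over 2-fold. The median log2 ratio of the 18 was 0.20 and became -0.23 after rescaling to TPM. Mx2, an antiviral GTPase gene, had the highest ratio, at 0.786 FPKM in spleen and 4.07 in lung, and Ifi44 the lowest, at 2.25 and 0.283 FPKM.

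By distance in log2 FPKM over both libraries, the gene nearest to Psmb10 was Cyc1 (0.0098), to Tap2 Pigx (0.024), to Psmb9 Uqcr11 (0.038), to Psmb8 Rac2 (0.043), to Tap1 Fyn (0.043), to Nlrc5 Bap1 (0.051), to Tapbp Ewsr1 (0.077), to H2-K1 Eef1a1 (0.20), to H2-D1 Ppia (0.25) and to B2m Mir762 (0.46). With 2 libraries such likeness covers a level and a ratio only.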
